A study of Mus musculus with 52 samples.

Results

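The comparison described here is that of skeletal muscle from vehicle-treated mice carrying the C71G mutant of human profilin-1 (PFN1) with skeletal muscle from wild-type mice. It was chosen by tissue and arm label alone and took in 11 of the 52 libraries of the series, 5 from transgenic and 6 from wild-type mice. All mouse genes that passed a filter on low counts entered, 16949 in number. The series as a whole sampled spinal cord, cortex and skeletal muscle, and a further arm of transgenic mice received an AAV with an artificial microRNA against Atxn2. In the sources used here, the muscle sampled, the route of vehicle and the promoter that drives the transgene are not given.

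Wild-type mice were of the FVB/NJ strain, were 36 weeks old and had received vehicle, with 3 females and 3 males. The transgenic mice had received vehicle too, and their replicates 1 and 2 were females and replicates 3, 4 and 5 males. Replicate 2, a female, was 39 weeks old and the other 4 were 36 weeks old. The 6 treated transgenic muscle libraries were not compared, but they entered the filter, the scaling, the sex term and the estimate of the spread. Their replicates 1, 2 and 3 were females of 36, 38 and 39 weeks, and replicates 4, 5 and 6 were males of 36 weeks. Other genetic differences between the transgenic line and FVB/NJ were not examined.

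PFN1 is a small actin-binding protein that feeds actin monomers to growing filaments, and its C71G form is one of the mutations of familial amyotrophic lateral sclerosis, in which motor neurons are lost. A muscle fibre is electrically and metabolically set by its motor neuron. When that contact fails, fibres are known to switch acetylcholine receptor genes back on along their whole length, to raise myogenic factors and to waste, while fibres taken over by other motor neurons can change their myosin type. Fibrosis and immune cell entry are known to accompany these events.

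Each library held 66.5 to 100.6 M counts in wild type and 76.2 to 111.9 M in transgenic muscle, and RNA integrity numbers were 7.1 to 7.8 and 7.4 to 8.0. The labels were checked by human PFN1, which had at most 1 count in each wild-type library and 299, 170.2, 215, 274 and 222 unscaled CPM (counts divided by the total of the library and put on a per-M scale) in the transgenic libraries, listed from replicate 1 to 5. Mouse Pfn1 was at 91.2 ± 5.16 unscaled CPM in wild type (SD, n = 6) and 130.9 ± 14.8 in transgenic muscle (SD, n = 5; exact permutation p = 0.00433, the smallest that this two-sided test of 6 against 5 libraries can give). After scaling by trimmed mean of M-values (TMM) its log2 fold change was 0.19 (SE 0.08, adjusted p = 0.0606 by edgeR; 0.0297 with library names as a block). Reads may be shared between human PFN1 and mouse Pfn1, which was not tested. Of 12 markers of skeletal muscle fibres 1 rose and 8 fell (2 and 6 without scaling), and their summed level ran from 151298 to 186780.0 CPM in wild type and from 87927 to 117767 CPM in transgenic libraries. Acta1, the skeletal actin, was at 22185 to 29299.8 CPM in wild-type and 19006 to 24040.3 CPM in transgenic libraries. CPM below are after TMM scaling unless called unscaled, and mean CPM are given ± SD over 6 wild-type and 5 transgenic libraries.

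By edgeR's quasi-likelihood test, 8552 genes (50.5% of those tested) differed at an adjusted p under 0.05. Of these, 4351 genes (25.7%) rose and 4201 (24.8%) fell in transgenic muscle, and at a threshold of 2-fold 1566 (9.24%) rose and 495 (2.92%) fell. The split between the directions depended on scaling, since without a scaling factor 9272 genes (54.7%) rose and 1301 (7.68%) fell. The 50 genes with the most counts in wild type took 51.6 to 55.1% of wild-type counts and 42.9 to 49.0% of transgenic counts, and the unscaled fit moved the median log2 fold change of all genes from 0.01 to 0.35. Changes below are therefore relative to the median gene, counts over a list of genes are given under both fits, and ratios that need no scaling are given for the genes that allow one. Each count over a list is to be read beside the shares of all genes, 25.7% higher and 24.8% lower (54.7% and 7.68% without scaling). A further fit, added after seeing the data, had the number in the library names as a block, which matches libraries of the same sex, and it is named where it changed a call or moved a count by more than 1.5 times. It held neither the treated arm nor wild-type replicate 2, whose number no transgenic library bears, and was filtered and scaled anew. Effects of the block and of the libraries left out cannot be told apart in it. A log2 fold change is transgenic minus wild type throughout, and edgeR's Benjamini-Hochberg adjusted p is meant by adjusted p unless another test is named. The SE of a log2 fold change was derived as its absolute size divided by the square root of edgeR's F statistic. It thus holds no information beyond that test.

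The muscle nicotinic acetylcholine receptor is a ring of alpha, beta and delta subunits with either the fetal gamma or the adult epsilon subunit, and myogenic factors such as myogenin bind E-boxes (CANNTG) upstream of its genes. The stretches just upstream of 4 subunit genes and of the myogenin gene are shown because these genes were measured side by side and moved unequally. They come from RefSeq on GRCm38.p6, are written 5′ to 3′ on the strand of the gene, keep only bases outside annotated exons, and have each CANNTG in capitals (the motif reads as CANNTG on both strands).
Chrna1 (chr2:73580339-73580588, minus strand): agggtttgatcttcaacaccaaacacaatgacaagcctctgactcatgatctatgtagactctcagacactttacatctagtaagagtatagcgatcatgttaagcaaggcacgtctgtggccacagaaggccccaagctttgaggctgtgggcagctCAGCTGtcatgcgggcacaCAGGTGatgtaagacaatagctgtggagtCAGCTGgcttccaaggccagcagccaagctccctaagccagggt
Chrnb1 (chr11:69795944-69796067, minus strand): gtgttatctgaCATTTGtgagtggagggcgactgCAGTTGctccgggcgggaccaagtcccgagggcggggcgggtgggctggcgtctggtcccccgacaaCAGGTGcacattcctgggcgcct
Chrng (chr1:87205561-87205809, plus strand): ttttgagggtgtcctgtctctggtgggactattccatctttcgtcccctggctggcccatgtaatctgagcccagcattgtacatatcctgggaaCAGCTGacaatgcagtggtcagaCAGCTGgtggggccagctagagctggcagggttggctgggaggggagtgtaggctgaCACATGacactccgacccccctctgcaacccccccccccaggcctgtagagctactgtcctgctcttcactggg
Chrne (chr11:70619217-70619444, minus strand): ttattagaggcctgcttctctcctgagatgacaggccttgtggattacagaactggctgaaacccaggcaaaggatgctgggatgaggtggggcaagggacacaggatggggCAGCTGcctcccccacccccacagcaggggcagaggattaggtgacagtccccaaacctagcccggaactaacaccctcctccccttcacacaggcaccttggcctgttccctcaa
Myog (chr1:134289754-134289988, plus strand): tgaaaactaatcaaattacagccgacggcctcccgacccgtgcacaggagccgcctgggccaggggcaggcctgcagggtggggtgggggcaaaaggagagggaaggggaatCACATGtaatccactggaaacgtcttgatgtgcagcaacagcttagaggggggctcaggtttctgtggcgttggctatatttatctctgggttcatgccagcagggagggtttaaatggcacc
Chrna1, Chrnb1 and Chrng each held 3 E-boxes in these stretches, Chrne 1 and Myog 1. In the full 250 bases before the start, exons included, the counts were the same except that Myog held 2. Of all 32851 windows of 250 bases in the RefSeq table, 66.2% held at least 1 CANNTG (58.1% for genes tested, 1 window each). The variant CAGCTG was present in 13.0% of windows and more than once in 1.26%, and Chrna1 and Chrng held it 2 times, Chrne once and Chrnb1 not at all. A match describes letters only.

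All 4 subunits of the fetal receptor rose in transgenic muscle, with or without scaling, and the adult epsilon subunit did not pass the test. Chrna1, the alpha subunit that carries most of the acetylcholine site, was at 15.5, 17.3 and 19.8 CPM in wild type (lowest, median and highest of 6 libraries, as in all such triplets below). In the transgenic libraries Chrna1 was at 371, 230.2, 231, 262 and 257 CPM, in replicate order as in all such lists of 5 below. It rose (log2 fold change 3.93, SE 0.27, adjusted p = 3.36e-08), and replicate 1 was the highest. Chrnd, the delta subunit, was at 2.95, 3.73 and 4.50 CPM in wild type and 84.4, 59.3, 74.4, 79.3 and 72.7 CPM in transgenic muscle (log2 fold change 4.27, SE 0.26, adjusted p = 9.54e-09). Chrng, the gamma subunit of the fetal receptor, was at 0.478, 0.749 and 1.40 CPM against 34.1, 19.5, 31.4, 29.3 and 24.7 CPM (log2 fold change 4.96, SE 0.34, adjusted p = 3.63e-08). Chrnb1, the beta subunit, rose less, from 25.3, 28.2 and 36.6 CPM to 87.1, 74.3, 70.8, 77.7 and 73.4 CPM (log2 fold change 1.36, SE 0.17, adjusted p = 8.75e-06). None of these 4 genes overlapped between the arms, and 14.5% of all genes tested lay wholly above wild type in this way. Chrne, the adult epsilon subunit, was at 7.35, 9.21 and 11.2 CPM in wild type and 7.05, 6.93, 7.64, 9.75 and 8.77 CPM in transgenic libraries, which overlapped (log2 fold change −0.23, SE 0.12, adjusted p = 0.125). The ratio of Chrng to Chrne counts, which needs no scaling, was 0.0977 ± 0.0490 (SD, n = 6) in wild type and 3.51 ± 0.917 (SD, n = 5) in transgenic muscle (exact permutation p = 0.00433, adjusted p = 0.00722 over 10 ratios). These are bulk libraries, in which more or fewer cells of a type and more or less RNA per cell cannot be told apart.

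**Figure D1:**
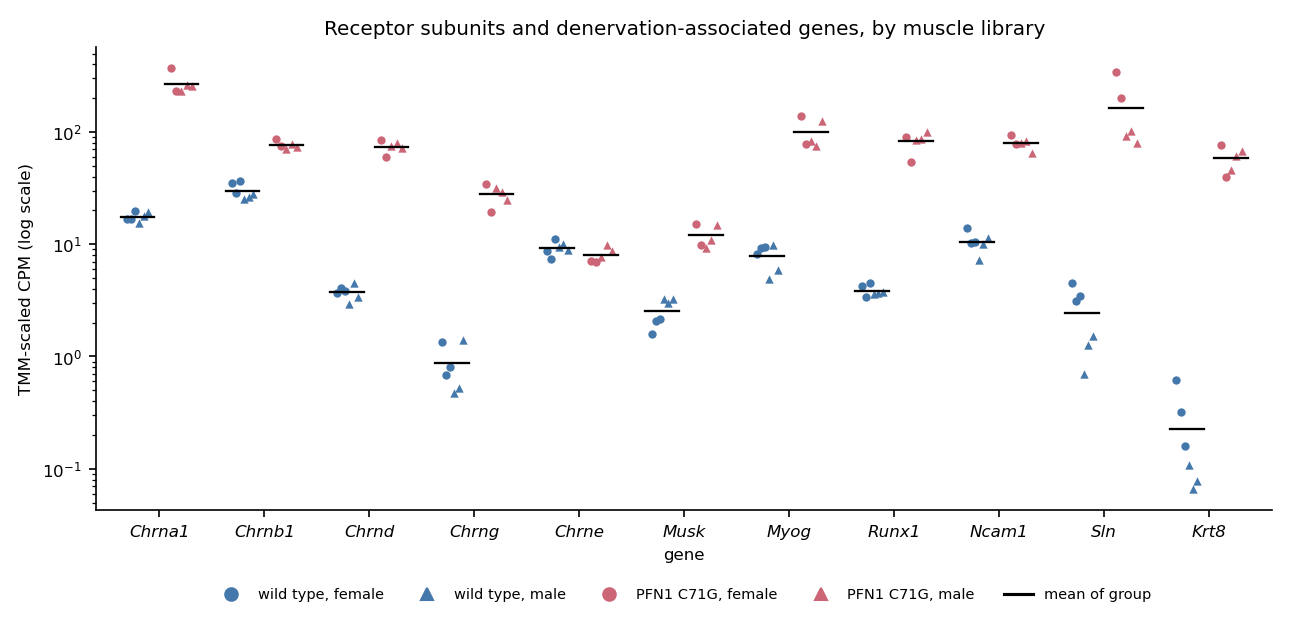
TMM-scaled CPM on a log axis of 11 genes in each muscle library, circles for females and triangles for males, with wild type in blue, transgenic in red and a bar at the mean of the group. The red points of 10 genes lie above all blue points, and those of Chrne overlap them.

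Of 23 tested genes for the scaffold and signalling of the neuromuscular junction, 11 rose and 7 fell (15 and 5 without scaling), with a median log2 fold change of 0.32. Musk, the receptor kinase that gathers acetylcholine receptors, was at 1.57, 2.57 and 3.27 CPM in wild type and 15.2, 9.89, 9.18, 10.8 and 14.9 CPM in transgenic muscle (log2 fold change 2.24, SE 0.22, adjusted p = 6.94e-07). Lrp4, the agrin receptor that partners Musk, rose by 1.13 on the log2 scale (SE 0.16, adjusted p = 1.79e-05), and Erbb3 and Erbb2, receptors of the neuregulins, by 0.67 and 0.78. Dok7 and Agrn, which act with Musk, did not pass the test (adjusted p = 0.0975 and 0.589). Rapsn, the protein that anchors the receptors, had a log2 fold change of −0.24 (adjusted p = 0.00938), which was 0.10 without scaling. Several junction genes fell. Ache, acetylcholinesterase, was at 26.1, 32.4 and 36.8 CPM in wild type and 12.4, 14.8, 14.4, 14.1 and 16.5 CPM in transgenic libraries (log2 fold change −1.16, SE 0.11, adjusted p = 5.93e-07), with no overlap. Prima1, which anchors the enzyme in membranes, was among the 10 largest called falls above a mean of 1 CPM (predicted models aside), from 2.39 to 0.124 CPM (log2 fold change −4.09, SE 0.66, adjusted p = 8.26e-05). Colq, its collagen tail at the junction, did not pass (0.32, adjusted p = 0.168). Ntf5, a neurotrophin of muscle, fell by 1.54 on the log2 scale (SE 0.17, adjusted p = 1.54e-06).

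Among 27 genes known to respond to loss of innervation, 19 rose and 4 fell (19 and 3 without scaling), with a median of 1.67. The background in the same fit was 25.7% of genes higher and 24.8% lower. The list was drawn up with earlier results of these data known, so setting it beside the background describes it and does not test it. Runx1, a transcription factor that preserves denervated fibres, was at 3.39, 3.71 and 4.49 CPM against 90.9, 54.1, 85.4, 86.5 and 101 CPM (log2 fold change 4.40, SE 0.23, adjusted p = 5.79e-09). Gdf5, a BMP ligand with a role in denervated muscle, rose from 0.411 to 20.9 CPM (log2 fold change 5.73, SE 0.34, adjusted p = 9.54e-09). Myogenin (Myog) was at 4.86, 8.73 and 9.84 CPM in wild type and 138, 77.4, 82.4, 75.5 and 126 CPM in transgenic libraries (log2 fold change 3.68, SE 0.30, adjusted p = 1.68e-07). The cell adhesion molecule Ncam1 rose from 10.5 ± 2.12 to 80.3 ± 10.6 CPM (2.93 ± 0.24, log2 fold change ± SE), and Hdac4, the deacetylase through which inactivity acts on Myog, from 34.6 ± 2.06 to 121 ± 17.7 CPM (1.79 ± 0.16). The growth arrest genes Gadd45a and Cdkn1a rose by 4.22 and 3.12. Fst, which blocks myostatin, rose by 2.79 while Mstn itself fell by 1.66 on the log2 scale (adjusted p = 2.37e-05). Dach2, a repressor of Myog that Hdac4 acts on, did not pass (−0.37, adjusted p = 0.438).

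The membrane and calcium release machinery moved mostly the other way. Of 18 genes of excitation-contraction coupling, 2 rose and 13 fell at a median of −0.23, but without scaling 5 rose and 6 fell at a median of 0.11. Those that fell under both fits included Jph2 and Jph1, junctophilins that hold the tubule to the calcium store, at −1.08 and −0.68 (unscaled −0.74 and −0.35). Camk2a fell from 338 ± 60.8 to 103 ± 27.1 CPM (log2 fold change −1.78, SE 0.11, adjusted p = 9.54e-09). Ryr1, the calcium release channel, and Cacna1s, its voltage sensor, had log2 fold changes of −0.46 and −0.21, and the latter was 0.12 without scaling and lost its call with library names as a block (adjusted p = 0.0561). Of 24 ion channel genes, 4 rose and 14 fell (7 and 9 without scaling). Kcnn3, the apamin-sensitive potassium channel of denervated fibres, rose from 7.55 to 64.7 CPM (log2 fold change 3.26, SE 0.34, adjusted p = 1.24e-06). The adult sodium channel Scn4a fell from 472 ± 52.2 to 319 ± 31.8 CPM (log2 fold change −0.58, SE 0.06, adjusted p = 2.27e-06). The chloride channel Clcn1, which steadies the resting membrane, fell from 199 ± 15.1 to 103 ± 14.1 CPM (log2 fold change −0.96, SE 0.09, adjusted p = 5.49e-07). Both fell without scaling as well, at −0.25 and −0.63.

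The micropeptides that bind the calcium pump parted. Sln, sarcolipin, was at 0.705, 2.32 and 4.50 CPM in wild type and 342, 200.3, 91.2, 101 and 79.3 CPM in transgenic muscle (log2 fold change 6.18, SE 0.45, adjusted p = 6.33e-08), with the 2 females above the 3 males. Pln, phospholamban of slow fibres, rose by 0.84 (adjusted p = 0.00178). Mrln, myoregulin of fast fibres, fell from 18.0 ± 6.24 to 7.49 ± 2.04 CPM (log2 fold change −1.33, SE 0.12, adjusted p = 3.39e-07). 1810037I17Rik, the fourth of the 4 tested, had a log2 fold change of 0.12 that did not pass (adjusted p = 0.251; 0.46 and adjusted p = 0.000172 without scaling).

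Genes of satellite cells and myogenic differentiation rose more often than they fell, 13 against 3 of 24 (19 and 1 without scaling; median 0.61). Mymk and Mymx, the membrane proteins that fuse myoblasts, rose from 1.12 ± 0.682 to 12.6 ± 2.50 CPM (log2 fold change 3.49, SE 0.35, adjusted p = 9.55e-07) and from 0.266 to 1.73 CPM (2.54 ± 0.36), in that order. Myf6, the myogenic factor of mature fibres, rose by 1.58, Myf5 by 1.45 and Myod1 by 1.18. Pax7, which marks the satellite cell itself, rose by 0.61 from 0.963 ± 0.258 to 1.47 ± 0.197 CPM (adjusted p = 0.00732), and Pax3 did not pass (0.03, adjusted p = 0.911). Of 9 fetal or cardiac sarcomere isoforms tested, 7 rose and none fell (8 and 0 without scaling; median 2.90). The embryonic myosin Myh3 was at 3.37, 7.86 and 14.7 CPM in wild type and 55.1, 71.7, 52.9, 78.5 and 35.2 CPM in transgenic libraries (log2 fold change 2.90, SE 0.34, adjusted p = 3.79e-06). The perinatal myosin Myh8 was at 10.2, 17.003 and 23.2 CPM against 636, 318, 112, 87.6 and 102 CPM (log2 fold change 3.62, SE 0.44, adjusted p = 4.85e-06), highest in the 2 females. Cardiac troponin T (Tnnt2) rose from 3.17 ± 1.09 to 26.0 ± 3.16 CPM (log2 fold change 3.04, SE 0.26, adjusted p = 2.22e-07), and the atrial light chain Myl4 by 2.42.

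The adult myosins shifted away from the fastest type. Myosin heavy chains set the speed of a fibre, in the order Myh4 (type IIb), Myh1 (IIx), Myh2 (IIa) and Myh7 (type I, slow). As a share of the summed counts of these 4 genes, not corrected for transcript length, Myh4 took 57.6% at the lowest, 70.9% at the median and 76.3% at the highest in wild type and 20.7, 12.8, 42.4, 35.0 and 49.7% in the transgenic libraries. The arms did not overlap (mean 68.8 ± 8.21% against 32.1 ± 15.2%, SD, exact permutation p = 0.00433, adjusted p = 0.00722). The share of Myh1 was higher, at 47.6 ± 3.66% against 27.7 ± 5.98% (SD, exact permutation p = 0.00433, adjusted p = 0.00722). Myh2 took 18.997 ± 11.6% against 3.53 ± 2.39%, and Myh7 1.27 ± 1.65% against 0.0323 ± 0.0530% (exact permutation p = 0.00866 and adjusted p = 0.0108 for each). Replicate 2 held the most Myh7, at 4.16% of the 4 genes, and replicate 5, with 0.0975%, lay below the highest wild-type library, at 0.140%. For Myh2 too, transgenic replicate 5, at 5.95%, lay below the highest wild-type library, at 6.98%. In the fit over all genes Myh4 fell from 41261 ± 8257 to 11145 ± 6805 CPM (log2 fold change −2.12, SE 0.31, adjusted p = 3.94e-05), Myh2 and Myh7 rose by 1.51 and 4.57, and Myh1 did not pass (−0.08, adjusted p = 0.672). Of the other heavy chains, Myh6 rose (2.35, adjusted p = 0.00422; 0.132 with library names as a block), and Myh7b, Myh13 and Myh15 did not pass (0.34, adjusted p = 0.506, −0.79, adjusted p = 0.0766 and −0.17, adjusted p = 0.780).

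**Figure D2:**
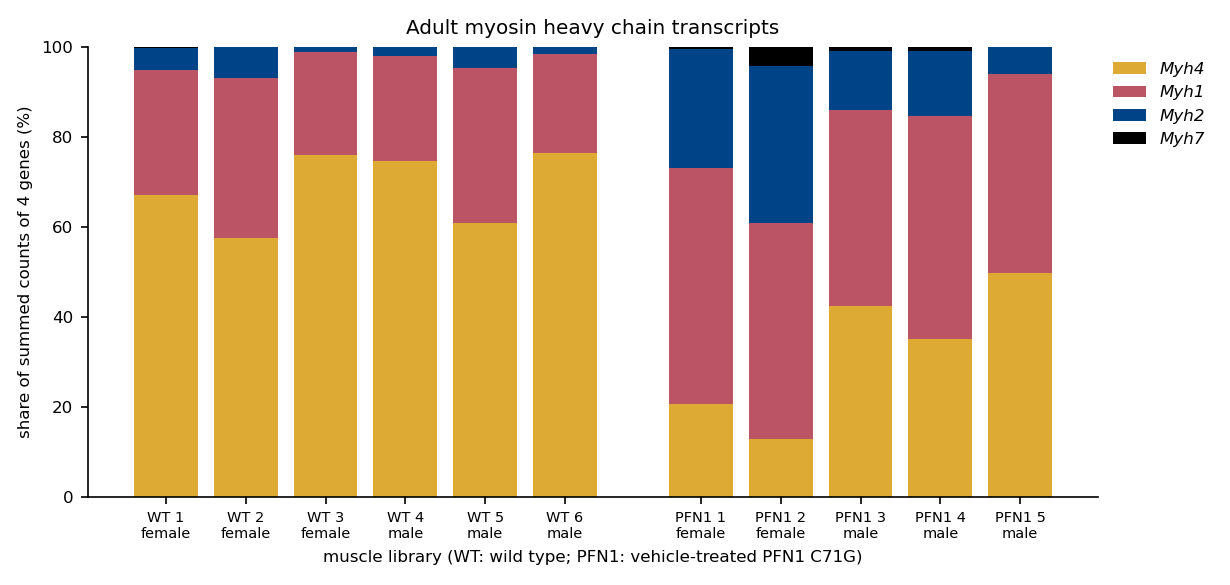
Share in percent of the summed counts of Myh4, Myh1, Myh2 and Myh7 in each of the 11 muscle libraries, as stacked bars from 0 to 100%. Myh4 takes 57.6 to 76.3% in wild type and 12.8 to 49.7% in transgenic libraries, lowest in the 2 transgenic females.

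Thin and thick filament genes moved with the myosins. Of 14 slow-fibre genes 13 rose and 1 fell (13 and 1 without scaling; median 2.33). Slow troponin I, Tnni1, was at 2.72, 3.93 and 11.03 CPM in wild type and 92.5, 250.5, 72.9, 68.8 and 35.3 CPM in transgenic muscle (log2 fold change 4.32, SE 0.43, adjusted p = 8.36e-07). Slow troponin T, Tnnt1, was at 6.71, 9.15 and 28.4 CPM against 199.9, 463, 207, 198 and 79.3 CPM (log2 fold change 4.31, SE 0.42, adjusted p = 7.09e-07). Both were highest in transgenic replicate 2 and lowest in replicate 5, which still exceeded every wild-type library. Atp2a2, the calcium pump of slow fibres and heart, rose from 61.1 ± 21.2 to 509 ± 322 CPM (log2 fold change 3.01, SE 0.33, adjusted p = 2.00e-06). The exception was Smtnl2, which fell (−1.09, adjusted p = 1.02e-05). Of 18 fast-fibre genes, 1 rose and 16 fell (2 and 15 without scaling; median −1.01). Mybpc2, fast myosin-binding protein C, was at 3445, 4534 and 5681 CPM in wild type and 421, 434, 1255, 1093 and 1815 CPM in transgenic muscle (log2 fold change −2.38, SE 0.30, adjusted p = 8.67e-06). Mylk2, the kinase of fast light chains, was at 882, 1168 and 1263 CPM against 194, 221, 219, 237 and 357 CPM (log2 fold change −2.22, SE 0.14, adjusted p = 1.10e-08). The calcium buffer Pvalb and the fast actinin Actn3 fell by 1.71 and 1.29 on the log2 scale. The 3 ratios of a slow to a fast partner rose with no scaling involved, by 4.85 for Tnni1 to Tnni2, 4.94 for Tnnt1 to Tnnt3 and 4.01 for Atp2a2 to Atp2a1 on the log2 scale (exact permutation p = 0.00433, adjusted p = 0.00722 for each).

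**Figure D3:**
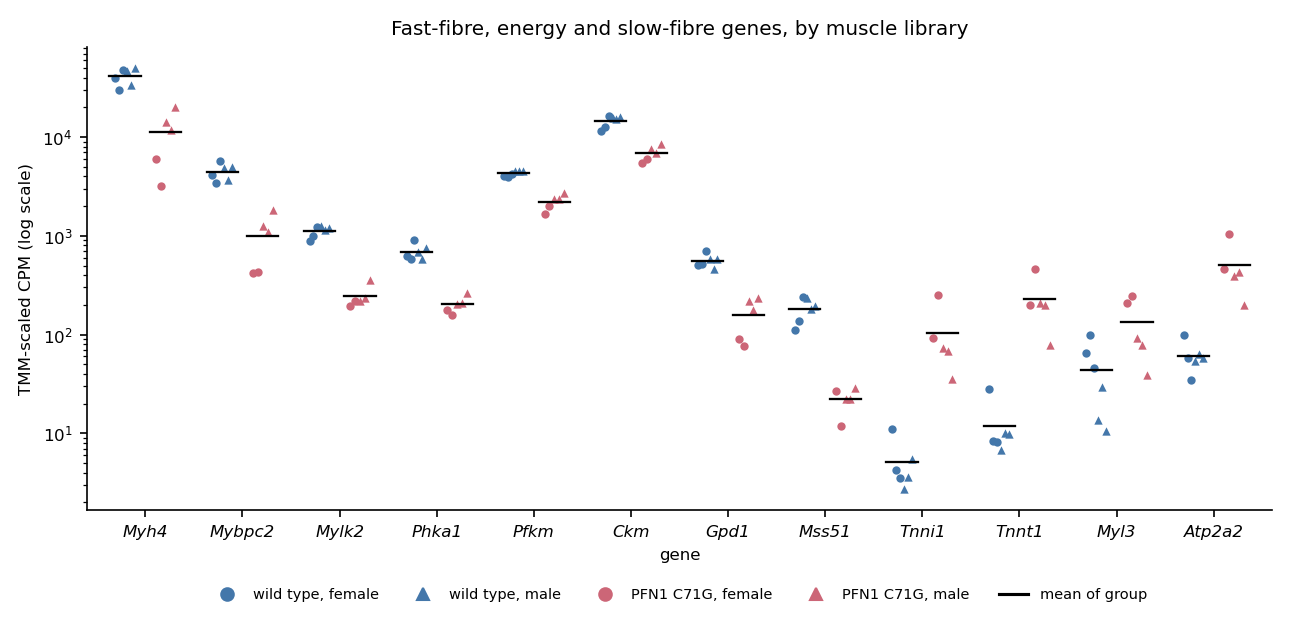
TMM-scaled CPM on a log axis of 12 fast-fibre, energy and slow-fibre genes in each muscle library, circles for females and triangles for males, wild type in blue, transgenic in red, and a bar at the mean of the group. The 8 genes from Myh4 to Mss51 lie lower in all red points than in all blue ones, Tnni1, Tnnt1 and Atp2a2 lie higher, and Myl3 overlaps.

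Glycolytic genes were lower. Of 26 genes of glycolysis and glycogen 24 fell and 1 rose (21 and 2 without scaling), with a median of −0.98 (−0.65 without scaling). Phosphofructokinase Pfkm, the committed step, was at 3919, 4368 and 4551 CPM in wild type and 1684, 1984, 2372, 2369 and 2713 CPM in transgenic libraries (log2 fold change −0.98, SE 0.08, adjusted p = 2.34e-07). Phka1, a subunit of phosphorylase kinase, was at 581, 653 and 915 CPM against 179, 158, 204, 209 and 262 CPM (log2 fold change −1.79, SE 0.15, adjusted p = 1.68e-07). Glycogen phosphorylase Pygm fell from 6226 ± 800.0 to 2674 ± 580.4 CPM, and Gpd1 of the glycerol phosphate shuttle from 562 ± 84.7 to 159.6 ± 73.3 CPM. The glucose transporter Slc2a4 fell by 0.85 on the log2 scale (adjusted p = 2.93e-06). Hexokinase 1 rose (0.92, adjusted p = 2.17e-05) while Hk2, the muscle form, fell (−0.41, adjusted p = 0.000567). The heart-type Ldhb did not pass (0.35, adjusted p = 0.273). Creatine kinase Ckm, which buffers ATP in fast fibres, was at 11648, 15518 and 16315 CPM in wild type and 5523, 6045, 7495, 6847 and 8475 CPM in transgenic muscle (log2 fold change −1.12, SE 0.11, adjusted p = 6.61e-07).

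Mitochondrial genes shifted by less, and their count rested on scaling. Of 50 nuclear genes for the respiratory chain, 48 fell and none rose with TMM scaling, but 14 fell and 1 rose without it, at medians of −0.48 and −0.14. The members lay between −0.75 (Ndufs7) and −0.12 (Ndufb3). Of 20 genes of the tricarboxylic acid cycle, 17 fell and 1, Idh2, rose (3 and 2 without scaling; medians −0.37 and −0.03). Idh3a, a subunit of the NAD-dependent isocitrate dehydrogenase of that cycle, fell under both fits (−0.68, adjusted p = 1.11e-05; unscaled −0.35). Of 15 transcripts of the mitochondrial genome 12 fell with scaling and 4 without it, and the count was 7 without transgenic replicate 1. Their share of all counts was 18.8 ± 0.880% in wild type and 17.98 ± 2.19% in transgenic muscle (SD; exact permutation p = 0.494). Genes of fatty acid oxidation stayed near the median gene, with 3 higher and 1 lower of 26 (14 and 0 without scaling; 5 higher without wild-type replicate 5 and 3 lower without transgenic replicate 2; medians −0.01 and 0.33). The 3 that rose were Angptl4 (2.14), Pdk4, which holds back pyruvate entry, from 237 ± 61.7 to 645 ± 165 CPM (log2 fold change 1.44, SE 0.26, adjusted p = 0.000208), and Acot2 (0.69), whose call was lost without transgenic replicate 2 (adjusted p = 0.0501). Of 18 regulators of metabolism, 10 fell and none rose with scaling (3 and 5 without), among them Prkaa2, a catalytic subunit of AMP kinase (−0.83, adjusted p = 2.93e-06; unscaled −0.50), and Perm1 (−0.76, adjusted p = 0.00110).

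The ubiquitin ligases best known from wasting muscle did not pass the test. Fbxo32 (atrogin-1) was at 183, 299.6 and 372 CPM in wild type and 252, 228, 226, 361 and 397 CPM in transgenic muscle (log2 fold change −0.03, SE 0.19, adjusted p = 0.907). Trim63 (MuRF1) was at 111, 142 and 207 CPM against 140.4, 145, 140.3, 191 and 287 CPM (log2 fold change 0.23, SE 0.19, adjusted p = 0.312). The arms overlapped for both. Of 24 genes of this axis 6 rose and 7 fell (13 and 2 without scaling). Eda2r, a receptor of the tumour necrosis factor family, was at 6.92, 8.59 and 9.45 CPM in wild type and 105, 58.7, 81.8, 109 and 99.1 CPM in transgenic muscle (log2 fold change 3.39, SE 0.22, adjusted p = 1.96e-08). Fbxo30, a ligase that acts in denervation atrophy, rose from 12.5 ± 1.58 to 22.4 ± 2.59 CPM (log2 fold change 0.83, SE 0.08, adjusted p = 6.67e-07). The transcription factors Foxo1 and Foxo4 changed in opposite directions, by 0.59 and −0.82. Of 22 genes of autophagy and lysosomes 7 rose and 5 fell (18 and 2 without scaling), with Hspb8 (1.87) and cathepsin L, Ctsl (1.01), at one end and Tfeb (−0.85) and Ulk1 (−0.61) at the other. Proteasome subunits lay within −0.44 to 0.37 (9 of 32 rose, 2 fell; 29 and 0 without scaling). Ribosomal protein genes lay close to the median gene (7 of 34 rose, 1 fell; 31 and 1 without scaling; 3 rose without transgenic replicate 2 and 4 without any 1 of wild-type replicates 1, 4 and 6 or transgenic replicates 1 and 5), with the exception of a pair that moved in opposite directions. Rpl3, the general form, was at 26.2, 28.0 and 37.1 CPM in wild type and 109, 107, 95.7, 95.7 and 106 CPM in transgenic libraries (log2 fold change 1.76, SE 0.14, adjusted p = 1.18e-07). Its muscle-specific partner Rpl3l fell from 342 ± 28.2 to 177 ± 24.6 CPM (log2 fold change −0.96, SE 0.10, adjusted p = 1.79e-06).

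Stress genes moved in part, in a fit in which 25.7% of all genes rose and 24.8% fell (54.7% and 7.68% without scaling). Of 21 heat shock genes 10 rose and 3 fell (15 and 1 without scaling), and the 4 that rose most were small chaperones, Hspb7 (1.32) among them, although Hspb2 fell (−0.38). Hspb8 was at 273, 307 and 362 CPM in wild type and 1157, 1256, 878, 1107 and 1392 CPM in transgenic muscle (log2 fold change 1.87, SE 0.21, adjusted p = 2.20e-06), and Hspb1 and Cryab rose by 1.44 and 1.09. The inducible Hspa1a and Hspa1b, near-identical copies whose reads may be split between them, did not pass. Of 20 chaperones of the endoplasmic reticulum 13 rose and 1 fell (19 and 0 without scaling), none by more than 0.94 (Sdf2l1). Of 23 ATF4 targets 6 rose and 4 fell (14 and 2 without scaling), and those that rose lay near the share of all genes under both fits. Slc7a5, the leucine transporter, rose by 2.68 and Atf4 itself fell (−0.56, adjusted p = 2.48e-05). Of 22 p53 targets 10 rose and 4 fell (15 and 3 without scaling), with Cdkn1a and Eda2r, given above, among the former and Tigar (−1.39, adjusted p = 3.31e-08) among the latter. Metallothionein Mt2 rose from 2.12 ± 1.19 to 13.1 ± 4.87 CPM (log2 fold change 2.65, SE 0.38, adjusted p = 2.68e-05), in a list of 18 redox genes of which 7 rose and 2 fell (13 and 1 without scaling). Of 13 genes of NAD salvage 5 fell and none rose (3 and 2 without scaling), among them Nmnat1 (−0.51, adjusted p = 8.58e-06) and Parp1 (−0.44, adjusted p = 6.54e-06).

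Matrix genes rose. Of 24 collagens 19 rose and 1, Col22a1 of the myotendinous junction, fell (22 and 0 without scaling; median 1.36). The main fibrillar collagens Col1a1 and Col3a1 rose from 112 ± 63.0 to 317 ± 187 CPM (log2 fold change 1.57, SE 0.44, adjusted p = 0.00671) and from 150.4 ± 59.6 to 449 ± 220.5 CPM (log2 fold change 1.53, SE 0.31, adjusted p = 0.000695). Col25a1, a collagen of the muscle surface needed for innervation, rose from 0.416 to 5.29 CPM (log2 fold change 3.80, SE 0.29, adjusted p = 8.61e-08). Of 29 fibrosis factors and matrix cross-linkers 27 rose and none fell (28 and 0 without scaling; median 1.21). Timp1, an inhibitor of matrix proteases, was at 0.277, 0.389 and 0.730 CPM in wild type and 20.3, 13.5, 9.64, 7.23 and 6.71 CPM in transgenic muscle (log2 fold change 4.67, SE 0.33, adjusted p = 4.14e-08), again highest in the 2 females. Tgfb1, the main fibrogenic cytokine, was at 5.56, 8.15 and 9.25 CPM against 40.3, 26.1, 25.6, 29.5 and 28.8 CPM (log2 fold change 1.92, SE 0.19, adjusted p = 6.07e-07). Lox, which cross-links collagen, rose by 2.18, fibronectin (Fn1) by 2.02 and periostin (Postn) by 2.81. Acta2 of myofibroblasts and vessel walls did not pass (−0.41, adjusted p = 0.0981). Markers of fibro-adipogenic progenitors, the interstitial cells that make this matrix, moved alongside, as 8 of 15 rose and none fell (12 and 0 without scaling; median 0.52). Pdgfra, their defining receptor, was at 12.4 ± 5.79 against 17.6 ± 3.01 CPM (0.59, adjusted p = 0.0408). Their summed level ran from 535 to 1131 CPM in wild type and 1040.1 to 1374 CPM in transgenic libraries, and their part in the rise of matrix genes was not tested. Of 13 tendon and cartilage genes 7 rose and none fell (9 and 0 without scaling), Scx, the tendon transcription factor, by 3.02 (SE 0.31, adjusted p = 9.26e-07), and their summed level was 109 to 652 CPM in wild type and 342 to 758 CPM in transgenic muscle.

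Of 19 myokines and matrix proteases 7 rose and 3 fell (9 and 1 without scaling), with the proteases Mmp2 and Mmp14 higher by 1.36 and 1.11.

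Macrophage genes rose from low levels. Of 24 macrophage and monocyte markers 21 rose and none fell (21 and 0 without scaling; median 1.23), and their summed level was 45.7 to 172 CPM in wild type and 219 to 269 CPM in transgenic libraries, without overlap. Cd68, a lysosomal protein of macrophages, rose from 2.15 ± 0.803 to 11.4 ± 2.86 CPM (log2 fold change 2.40, SE 0.34, adjusted p = 2.33e-05). Csf1r, the receptor of their growth factor, rose from 7.10 ± 3.60 to 18.1 ± 2.34 CPM (log2 fold change 1.41, SE 0.30, adjusted p = 0.000940). Mrc1, a marker of resident macrophages, rose from 6.01 ± 3.14 to 16.1 ± 1.04 CPM (log2 fold change 1.51, SE 0.27, adjusted p = 0.000190). Lymphocyte genes were scarce. Only 5 of 17 passed the filter on low counts, of which 4 rose under both fits, none above a mean of 0.368 CPM in either arm. With library names as a block 1 of the 5 rose, and with title numbers as a block none did. Cd3d, Cd3e, Cd3g, Cd8a and Trac had at most 19 counts in any library. Trdc, the constant segment of the T cell receptor delta chain, stood apart from them. It had 5 to 21 counts in wild type and 3376, 4234, 640, 835 and 924 counts in the transgenic libraries (log2 fold change 6.96, SE 0.41, adjusted p = 8.81e-09), and the rise is that of a single line whose transcript was not examined further. Of 9 neutrophil and mast cell genes 3 rose (6 without scaling), S100a8 by 4.06 (SE 0.61, adjusted p = 4.30e-05) and Cpa3 and Kit by less than 1. S100a9, the usual partner of S100a8, did not pass (0.44, adjusted p = 0.740), and Ly6g had at most 2 counts. The calls of Cpa3 and Kit were lost without wild-type replicate 5 or 6 or transgenic replicate 4, that of Cpa3 also without transgenic replicate 3 and that of Kit also without replicate 5, and 5 of the 9 rose without wild-type replicate 4. With library names as a block 5 rose as well, and Kit did not pass (adjusted p = 0.0839). Mean Kit was 2.28 CPM in wild-type and 2.24 CPM in transgenic females, against 1.67 and 3.78 CPM in males. This difference between sexes did not pass (adjusted p = 0.249 by edgeR). Of 16 chemokines 10 rose and none fell (10 and 0 without scaling), Ccl2 from 0.322 ± 0.116 to 0.842 ± 0.205 CPM and the fractalkine Cx3cl1 from 2.96 ± 0.696 to 8.10 ± 2.97 CPM. Of 17 complement and MHC class I genes 9 rose and none fell (11 and 0 without scaling), all 9 of them complement genes, C4b the most (log2 fold change 2.38, SE 0.38, adjusted p = 7.23e-05). B2m and H2-K1 did not pass (0.26, adjusted p = 0.333 and 0.20, adjusted p = 0.538). Of 22 interferon-stimulated genes 6 rose and none fell (13 and 0 without scaling), Ifitm3 with the smallest adjusted p (1.20, adjusted p = 4.31e-05), and 3 rose without transgenic replicate 1. With library names as a block 10 rose. The counts of 6 and, without scaling, 13 lie near the shares of all genes that rose, 25.7% and 54.7%.

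Proliferation genes were mostly higher. Of 22 tested 20 rose and 2 fell (20 and 1 without scaling; median 1.37), with Mki67, a marker of cycling cells, from 0.352 ± 0.201 to 1.35 ± 0.468 CPM (log2 fold change 1.92, SE 0.36, adjusted p = 0.000301) and Top2a from 0.190 ± 0.130 to 0.988 ± 0.366 CPM (log2 fold change 2.38, SE 0.44, adjusted p = 0.000309). The pair that fell were Ube2c, from 14.03 ± 3.79 to 8.52 ± 3.28 CPM, and Mcm2, from 5.39 ± 0.595 to 4.12 ± 0.915 CPM.

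Nerve and vessel genes gave a mixed picture, in a fit in which 25.7% of all genes rose and 24.8% fell. Of 19 Schwann cell and nerve genes 6 rose and 4 fell (8 and 1 without scaling; 2 fell without transgenic replicate 1), and their summed level overlapped between the arms (63.0 to 118 CPM in wild type, 62.7 to 112 CPM in transgenic muscle). Gap43, of growing axons and of Schwann cells that have lost their axon, rose (log2 fold change 1.99, SE 0.34, adjusted p = 0.000152), and so did Ngfr (0.90, adjusted p = 0.00136). The level of Gap43 was low, at 5 to 13 counts in wild-type and 30 to 47 counts in transgenic libraries. Mag of myelin and Pou3f1, a regulator of Schwann cells, fell (−1.11, adjusted p = 0.0188 and −1.01, adjusted p = 0.000530). Prx of myelin did not pass (−0.47, adjusted p = 0.208). Sox10, which defines the lineage, was at 1.27 ± 0.449 against 1.46 ± 0.375 CPM (0.19, adjusted p = 0.535). Of 6 tested axonal genes 1 rose (2 without scaling, by DESeq2, with library names as a block, or without any 1 of wild-type replicates 1 and 2 and transgenic replicates 2 and 3). That gene was Uchl1, from 2.98 ± 0.823 to 34.1 ± 4.48 CPM (log2 fold change 3.49, SE 0.28, adjusted p = 1.59e-07). Chat and Slc18a3 of motor neurons had no count in any of the 11 libraries. Of 26 neurotrophic factors and receptors 8 rose and 4 fell (15 and 3 without scaling). Gdnf, a survival factor for motor neurons, was at 1.02, 1.14 and 1.33 CPM in wild type and 8.59, 5.55, 4.98, 5.40 and 3.55 CPM in transgenic muscle (log2 fold change 2.27, SE 0.24, adjusted p = 1.66e-06). Vegfa fell from 327 ± 73.2 to 181 ± 17.4 CPM (log2 fold change −0.86, SE 0.13, adjusted p = 5.01e-05). Of 17 endothelial markers 8 fell and none rose with scaling, 2 and 2 without it, and 4 and 5 fell without wild-type replicates 2 and 6. Of 13 markers of pericytes and smooth muscle 3 fell and 1 rose (0 and 2 without scaling), and 8 fell without wild-type replicate 3. With library names as a block 1 of them fell and none rose. None of 6 erythrocyte genes was called under either scaling (median 0.15). Of 15 adipocyte genes 3 rose and 1 fell (5 and 0 without scaling), and the defining genes Adipoq and Plin1 did not pass (0.62, adjusted p = 0.444 and 0.85, adjusted p = 0.303). The rise of Car3, from 2959 ± 923 to 9299 ± 1856 CPM (log2 fold change 1.72, SE 0.18, adjusted p = 1.59e-06), is in a gene that fibres express too.

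**Figure D4:**
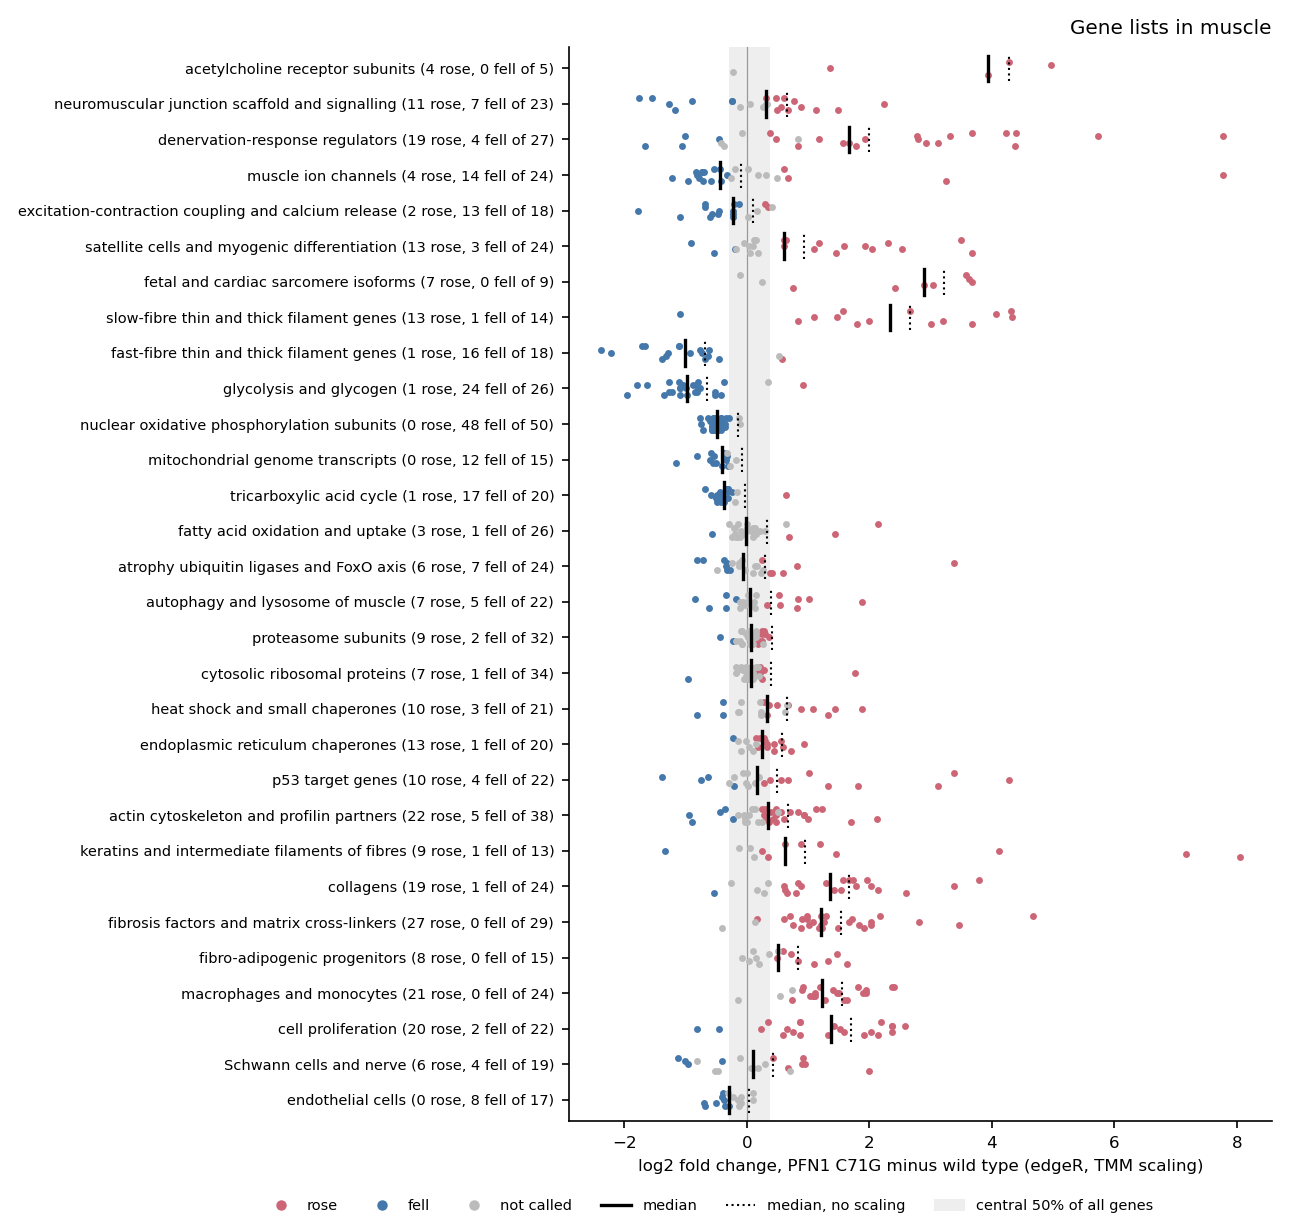
Log2 fold change of each tested gene of 30 lists, transgenic minus wild type by edgeR with TMM scaling, in red for genes that rose, blue for genes that fell and grey for the rest, with a bar at the median of the list, a dotted bar at its median without scaling and a grey band over the central 50% of all genes (−0.27 to 0.36). Both medians of the receptor, slow-fibre and fetal lists lie to the right of the band, and both medians of the fast-fibre and glycolysis lists to its left.

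Filament and actin genes include the partners of profilin. Of 13 intermediate filament genes 9 rose and 1, Synm, fell (10 and 1 without scaling). Krt8, a simple epithelial keratin that muscle fibres also hold at their costameres, was at 0.0659, 0.134 and 0.616 CPM in wild type and 77.2, 39.6, 46.0, 61.3 and 67.2 CPM in transgenic muscle (log2 fold change 8.05, SE 0.64, adjusted p = 1.32e-07). Its partner Krt18 was at 0.316, 1.00 and 2.36 CPM against 164, 92.9, 128, 179 and 195 CPM (log2 fold change 7.17, SE 0.52, adjusted p = 5.43e-08). Krt19 did not pass (0.05, adjusted p = 0.920), Des, the main fibre filament, did not pass (0.13, adjusted p = 0.313), and the epidermal Krt5 and Krt1 had no count in any library. Of 4 tested skin genes, 3 rose under both fits (Trp63, Sbsn and Dmkn), and the summed level of those 4 was 7.41 to 9.49 CPM in wild type and 20.3 to 28.2 CPM in transgenic muscle, whose part in the rise of Krt8 was not tested. Of 38 genes for actin regulators and profilin partners 22 rose and 5 fell (31 and 2 without scaling; 3 fell without transgenic replicate 2; median 0.34). Pfn2, the profilin of nerve and muscle, was at 107, 129 and 133 CPM in wild type and 57.5, 59.2, 69.3, 72.2 and 74.2 CPM in transgenic muscle (log2 fold change −0.94, SE 0.07, adjusted p = 3.70e-08), below every wild-type library. Pfn4 rose from a low level (1.23, adjusted p = 6.28e-06). Lmod2 of the thin filament end rose by 1.70 and Tmod4, which caps that end, fell by 0.89 on the log2 scale, and the cytoplasmic actins Actb and Actg1 did not pass (−0.02, adjusted p = 0.842 and −0.14, adjusted p = 0.231). Of 23 genes linked to amyotrophic lateral sclerosis 5 rose and 6 fell (20 and 1 without scaling; 3 rose without transgenic replicate 5). The scaled counts lie near the shares of all genes, 25.7% higher and 24.8% lower. Chchd10, a mitochondrial protein, was the 1 that fell under both fits (log2 fold change −0.92, SE 0.12, adjusted p = 1.19e-05; unscaled −0.58). Atxn2, Tardbp and Sod1 did not pass (−0.07, adjusted p = 0.352, −0.05, adjusted p = 0.325 and −0.14, adjusted p = 0.147), although Atxn2 was called without scaling (0.27, adjusted p = 0.00102).

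Imprinted growth genes rose in 9 of 14 cases and fell in 1 (9 and 0 without scaling; median 0.53). The noncoding RNA H19 was at 274, 597 and 1109 CPM in wild type and 4928, 5504, 1187, 1351 and 1487 CPM in transgenic libraries (log2 fold change 2.16, SE 0.20, adjusted p = 3.93e-07). Peg3, also imprinted, was at 31.6, 44.2 and 57.5 CPM against 211, 113, 118, 125 and 117 CPM (log2 fold change 1.68, SE 0.19, adjusted p = 2.76e-06). Igf2, which shares the locus of H19, had a log2 fold change of 0.39 (adjusted p = 0.0275; 0.0768 with library names as a block), a call also lost without any 1 of wild-type replicate 1 and transgenic replicates 1 and 2 (adjusted p up to 0.1002). The ratio of H19 to Igf2 counts was 33.6 ± 20.0 in wild type and 99.1 ± 62.6 in transgenic muscle (SD; exact permutation p = 0.0346, adjusted p = 0.0385), a call lost without any 1 of wild-type replicates 4, 5 and 6 and transgenic replicates 1, 2, 4 and 5. That test held no sex term, and the ratio differed by sex. It was 49.1 to 52.9 in wild-type and 160 to 174 in transgenic females. In males it was 11.3 to 22.0 and 46.0 to 60.2, so the arms did not overlap within either sex. Clock and immediate early genes, which react to the hour and manner of sampling, gave few calls. Of 17 clock genes 1 rose and 5 fell (3 and 2 without scaling), with Arntl at −0.18, adjusted p = 0.365 and Nr1d1 at −0.12, adjusted p = 0.477. Of 18 immediate early genes 3 rose and 3 fell (4 and 1 without scaling; 1 fell without any 1 of wild-type replicate 4 and transgenic replicates 1, 2 and 3), Nr4a1 from 289 ± 93.8 to 111 ± 65.0 CPM (log2 fold change −1.52, SE 0.34, adjusted p = 0.00158).

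Among the 10 largest rises were Bpifb1, a secreted protein of the palate and airway family, with 1 to 9 counts in wild type and 1251 to 2335 in transgenic muscle (log2 fold change 8.34, SE 0.84, adjusted p = 8.90e-07), and its neighbour Bpifa5 on chromosome 2, with 1 count in all wild-type libraries together and 226 to 351 in each transgenic library. Cntn2, an axonal adhesion protein, rose from 0.261 to 37.6 CPM (log2 fold change 7.25, SE 0.67, adjusted p = 4.14e-07). Igfbp2, a binding protein of insulin-like growth factors, rose by 6.99 (SE 0.54) and Tnn, the matrix protein tenascin-N, by 7.76 (SE 1.25), with Tnn at 894 counts in replicate 3 and 26 to 112 in the other 4. Among the largest falls, Mss51, a muscle protein of mitochondria, was at 110.0, 189 and 239.7 CPM in wild type and 26.7, 11.9, 22.4, 22.2 and 28.7 CPM in transgenic muscle (log2 fold change −3.08, SE 0.22, adjusted p = 5.13e-08). Ildr1, Casr, Pdzd7 and Tpbgl fell by 3.77, 3.03, 3.26 and 2.92 on the log2 scale with no overlap between the arms. Lamr1-ps1, a pseudogene of Rpsa at chr2:131904086-131904959, had no count in wild type and 208 to 312 counts in each transgenic library, at least 458-fold higher against a floor of 3 counts over the 6 wild-type libraries. Rpsa, whose sequence it resembles so that reads may be shared, did not pass (0.11, adjusted p = 0.296). Nbdy, a short protein of the mRNA decapping complex at chrX:153723590-153741920, had 317 to 527 counts in wild type and none in transgenic muscle, at least 779-fold lower against the same floor over the 5 transgenic libraries. Both of these differences were present in spinal cord and cortex too. Lamr1-ps1 had at most 1 count in wild-type libraries of those tissues and at least 240 in transgenic ones of both arms, and Nbdy at least 687 against at most 5. The 2 transgenic arms are pooled there because 2 of the 6 spinal cord libraries titled as vehicle have library names of the treated arm, and 2 titled as treated have names of the vehicle arm. Chrng, Krt8, Trdc and Bpifb1 were, by contrast, near 0 there in both genotypes, the highest group mean being 0.399 unscaled CPM (Krt8 in cortex).

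Few genes were called as changing by a different amount in males and females. A test of the difference between sexes called 19 genes (0.112% of those tested; 1575 at an unadjusted p under 0.05), and 1 gene when transgenic replicate 2, the older female, was left out, which leaves 1 transgenic female assumed to vary like the other libraries. The 2 genes named here from the 19 were chosen after their values were seen. Nmrk2, which makes a precursor of NAD, had means of 134 CPM in wild-type and 269 CPM in transgenic females but 465 and 147 CPM in males (adjusted p = 0.0154 by edgeR). Ampd1, AMP deaminase of fast fibres, fell from 919.6 to 213 CPM in females and from 633 to 325 CPM in males (adjusted p = 0.0375 by edgeR). Both calls were lost without replicate 2 (adjusted p = 0.0691 for Nmrk2 and 0.121 for Ampd1 by edgeR). Of 13 polyamine genes 3 rose and 6 fell (6 and 3 without scaling; 1 rose with library names as a block), and some differed between wild-type males and females. Amd1, the decarboxylase that feeds polyamine synthesis, was at 154 to 212 CPM in wild-type females and 793 to 1438 CPM in wild-type males, and at 54.4 to 65.7 and 133 to 169 CPM in transgenic females and males (log2 fold change −2.28, SE 0.23, adjusted p = 1.03e-06). Its near-identical copy Amd2 moved with it (−2.14), and reads may be split between the 2. Smox, which oxidises spermine, was at 24.6 to 47.0 and 127 to 200.5 CPM in wild-type females and males and at 10.6 to 11.2 and 16.2 to 21.0 CPM in transgenic ones (log2 fold change −2.49, SE 0.28, adjusted p = 2.21e-06). For both, the difference of the fall between sexes did not pass (adjusted p = 0.152 and 0.131 by edgeR). Kcnab1, a potassium channel subunit, had 4.00 to 6.53 CPM in wild-type females, 22.3 to 33.9 CPM in wild-type males and 0.849 to 1.604 CPM in the transgenic libraries (log2 fold change −3.54, SE 0.35, adjusted p = 8.10e-07; difference between sexes, adjusted p = 0.0566 by edgeR). Trnp1, a nuclear protein, was at 4.68 to 14.5 CPM in wild-type males, at most 0.0318 CPM in wild-type females and at most 0.299 CPM in transgenic libraries (log2 fold change −5.33, SE 0.84, adjusted p = 6.87e-05), and its difference between sexes did not pass (adjusted p = 0.217 by edgeR).

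**Figure D5:**
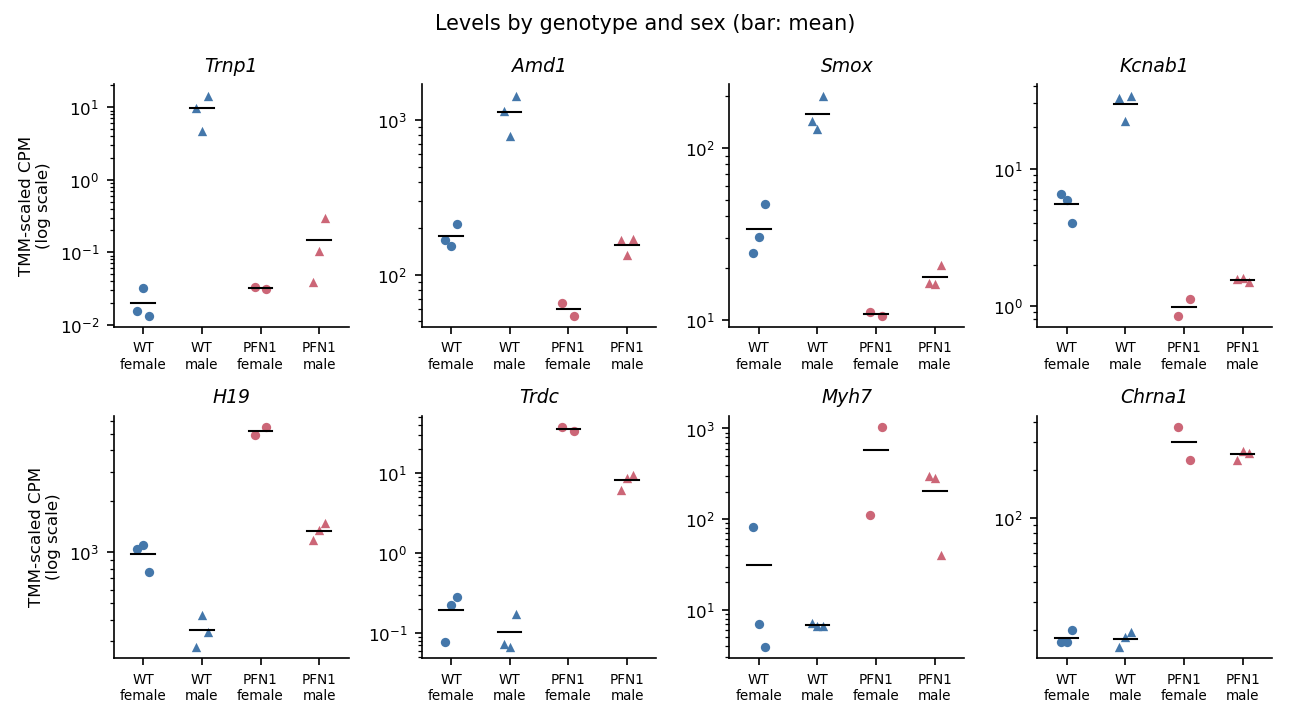
TMM-scaled CPM on log axes of 8 genes in wild-type (blue) and transgenic (red) females (circles) and males (triangles), each point a library and each bar the mean of 2 or 3 libraries. Amd1, Smox and Kcnab1 are highest in wild-type males and lower in transgenic libraries of both sexes, Trnp1 exceeds 1 CPM in wild-type males only, and Chrna1 is higher in transgenic libraries of both sexes.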

How the data were processed

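Poly(A) RNA from 17 muscle libraries was sequenced in pairs of reads, per the labels' protocols. The authors deposited a table of expected counts per gene over 55510 lines, made, per the submitters' processing notes, with RSEM 1.3.2 and STAR 2.7.2d, among other tools, on the builds GRCh38 and GRCm38. No source used here gives the strand setting, so overlapping and antisense genes may share reads.

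Expected counts were rounded to whole numbers. The 55401 mouse genes were filtered with filterByExpr, scaled by TMM and tested with edgeR 4.0.16 (R 4.3.3, limma 3.58.1) in a quasi-likelihood fit over 3 arms with sex as a term, and p-values were Benjamini-Hochberg adjusted over 16949 genes at 0.05. The treated arm was outside the contrast but shared in the filter, the scaling, the sex term and the estimate of the spread. In a fit of the 2 arms alone, 4147 genes rose and 3924 fell. The labels do not say that libraries came from separate mice, so p-values measure the spread between these libraries. Ratios and shares of counts were tested by exact two-sided permutation (scipy 1.17.1). Numbers in the library names served as a block in the further fit only, and the main fit and permutation tests held no such term. Libraries with the same number deviated together with r of 0.15 to 0.43 once group means were removed. Once sex, which they share, was removed too, r was −0.03 to 0.14. Alternatives were DESeq2 1.42.0, other scalings and filters, other terms, and leaving out each of 11 libraries. On simulated data, 64 of 100 genes changed by 0.5 on the log2 scale and 96 of 100 changed by 1 were called, with 7 false calls among 16760 genes. The changed genes lay above a mean of 1 CPM and rose as often as they fell, and sex had no effect. With so few changed genes, the simulation does not measure false calls or scaling in the data, where 50.5% of genes were called.

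Genes were named by rule: the profilins and Atxn2, the 10 largest called rises and falls above a mean of 1 CPM (predicted models aside), up to 4 of the called genes with the lowest adjusted p in each of 55 lists, all receptor subunits, myosins and micropeptides, and other list members where a spread or an absent marker is described. Some items are not reported here. Members and lists were chosen with earlier results of these data known. Promoter stretches were read from a RefSeq table, which matched 6 of 7 genes looked up.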

Additional observations from a re-analysis of the deposited data

Results flagged for a closer look

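In 477 checks of a gene or ratio within an arm, 38 had a library set apart from the rest of its arm by Dixon's test, and chance flags about 1 in 20 such groups (5%). Values are CPM unless named otherwise.

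Transgenic replicate 2, the older female, held the highest values of its arm for slow troponin I and slow and related myosins: Myh7 1038, Myh6 142.1, Myh7b 16.7 and Tnni1 250.5 CPM, with 4.16% of the adult myosins as Myh7. It was also highest for Acot2 (26.6) and Rpl19 (209.7). Wild-type replicate 1 stood out for slow-fibre genes in its own arm, with Myh7 at 82.4 and 0.140% of the adult myosins, Tnni1 at 11.03, Tnnt1 at 28.4, a ratio of 0.00312 for Tnni1 to Tnni2 and one of 0.00265 for Tnnt1 to Tnnt3. Its single count of Bpifa5 (0.0154) was the only one in the arm.

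Transgenic replicate 1 was highest for Chrna1 (371), Mymk (17), Peg3 (211), Tgfb1 (40.3), Scx (40.9), Lgals3 (29.9), Igfbp2 (23.97), Fosl1 (2.37), Oas2 (2.97) and Canx (126.8), and lowest for Atp5c1 (412). Transgenic replicate 3 was highest for Mmp3 (13.2), Tnn (8.63) and Cfb (10.6). Transgenic replicate 5 was highest for Mylk2 (357) and Trnp1 (0.299) and lowest for Thbs4 (88.6).

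Wild-type replicate 3 was highest for Eno3 (6345), Fbxo31 (187.6), Vapb (188), Pfn1 (112.7) and Col19a1 (0.319) and lowest for Lamp2 (46.4) and Tgfb1 (5.56).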

How the results depend on the processing

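Scaling moved most. Without a scaling factor 9272 genes rose and 1301 fell, 87.7% of calls were higher, 66.1% of the calls remained in their direction, and 297 were called in the opposite one. Of 230 genes named by rule, 207 kept direction and side of the threshold under that fit, 15 lost their call, 2 gained one and 6 changed sign. Chrne, Myh1 and Myh15 were called under neither fit, at 0.11, 0.26 and 0.18 without scaling, and the other 3 turned to positive values: Atxn2 to 0.27 (adjusted p = 0.00102 by edgeR), Ncor1 to 0.080 (adjusted p = 0.268 by edgeR) and Cry1 to 0.014 (adjusted p = 0.901 by edgeR). DESeq2 gave 4506 higher and 4272 lower, a filter at a mean of 1 CPM 3811 and 3217, and RIN as a further term 3723 and 3576. As each library was left out, 4011 to 4344 genes rose and 3764 to 4137 fell.

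The count of genes that differed between sexes was 29 in a fit of 2 arms and 1 without transgenic replicate 2. The counts over lists that leaving out 1 library moved by more than 1.5 times stand beside them, and the others, of 0 to 2 genes, shifted by 1. Leaving out each library gave log2 differences of 5.13 to 5.45 for Chrng to Chrne, 3.64 to 4.38 for Atp2a2 to Atp2a1, 4.44 to 5.21 for Tnni1 to Tnni2, 4.61 to 5.32 for Tnnt1 to Tnnt3, −1.45 to −0.96 for the share of Myh4, 0.75 to 0.88 for Myh1, 2.22 to 2.86 for Myh2 and 4.68 to 6.03 for Myh7. The ratio of H19 to Igf2 ranged from 1.33 to 1.81 and lost its call without any 1 of 7 libraries (exact permutation, adjusted p up to 0.0847). Human PFN1 ranged from 8.75 to 8.95 and mouse Pfn1 from 0.46 to 0.55.

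With the replicate number of the titles as a block, 3337 genes rose and 3141 fell. That fit too was without the treated arm, and without wild-type replicate 6. Of 110 counts over a list and direction, 22 moved by more than 1.5 times. From main counts of 4 or more, these were higher collagens from 19 to 12, progenitor markers from 8 to 5, ribosomal proteins from 7 to 4, interferon-stimulated genes from 6 to 2 and lymphocyte genes from 4 to 0, and lower endothelial genes from 8 to 4, actin regulators from 5 to 3, clock genes from 5 to 2 and ATF4 targets from 4 to 2. Same-numbered libraries deviated together with r of 0.39, 0.36, −0.33, 0.35 and 0.29 once group means were removed and of 0.08, 0.02, −0.34, 0.08 and 0.13 once sex was removed too. By these title numbers 3 of 5 wild-type and 4 of 5 transgenic libraries were closest to their own number, which is a hint of shared numbers, but the pair numbered 3 differs in sex and fell below 0.1, and these numbers were not taken as pairs. Transgenic replicates 2 to 5 bear the library names 3 to 6. With library names as a block, 3913 genes rose and 3535 fell, 11 of the 110 counts moved by more than 1.5 times, and of 226 genes named by rule 7 lost their call and 1 gained one. The changes to genes and counts given in the text stand beside them, apart from 4 counts of 0 or 1 gene that shifted by 1. Counting nuclear copies of the mitochondrial genome, an alternative chosen after seeing the data, gave shares of 24.1% in wild type and 22.98% in transgenic muscle. The cause of these shifts was not tested, and genes with few counts, such as those of lymphocytes, had the widest counting error.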

Other observations

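Some genes outside the lists changed by as much as those in them and were chosen after their values were seen. Prnp, the prion protein gene, was at 96.5 ± 9.50 CPM in wild type and 908 ± 166 CPM in transgenic muscle (log2 fold change 3.22, SE 0.14, adjusted p = 2.41e-10 by edgeR). Its unscaled means were also higher in both transgenic arms of spinal cord, 2 libraries of each of which have names of the other arm (2464 and 2347 against 581 CPM), and in vehicle-treated transgenic cortex (3009 against 638 CPM). Lamr1-ps1 lies near Prnp on chromosome 2. Whether reads of either gene come from the transgene was not tested.

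Rrad, a small GTPase of muscle, rose from 2.92 ± 0.643 to 90.1 ± 21.3 CPM (log2 fold change 4.91, SE 0.19, adjusted p = 1.55e-10 by edgeR). Nrcam and its ligand gliomedin, Gldn, adhesion proteins of nodes of Ranvier, rose by 5.04 and 4.34 on the log2 scale, and Chrm3 and Adra1b, receptors for acetylcholine and noradrenaline, by 4.39 and 4.76. Ampd3, the AMP deaminase isoform outside fast fibres, rose by 3.04 while Ampd1 fell. Aurka and Tpx2, partners at the mitotic spindle, fell by 1.93 and 1.87 on the log2 scale, against 20 of 22 listed proliferation genes that rose.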
